A study of Mus musculus with 2 samples.

Results

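Mir199a-1, Mir199a-2, Mir199b and Mir214 are the 4 mouse genes of the miR-199 and miR-214 microRNAs, and they were taken from the deposited gene tables by gene identifier, 4 of 1973 miRNA gene rows. All 4 had counts in both libraries, and none was removed by a filter. The study sequenced small RNA of hearts taken on postnatal day 0 from B6NCrl mice, in 1 group with 2 libraries. Replicate 1 is the heart of pup 2 and replicate 2 that of pup 3, both born to pregnant female 1 and filed under the same donor record. No genetic change or treatment is named in the labels, and sex was not collected. Libraries came from total RNA with inserts under 30 nt. With 1 group there was no condition to compare, so the values below describe the level of each gene, the relation of the genes to each other and the difference between 2 hearts of 1 litter.

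MicroRNAs (miRNAs) are short RNAs cut from a hairpin precursor, and they repress messenger RNAs that match their seed, bases 2 to 8 of the mature strand. The 2 strands of a hairpin that can become mature miRNAs are called the 5p and 3p arms. Mir199a-2 and Mir214 are made from 1 long noncoding RNA, Dnm3os, which is transcribed antisense to the dynamin gene Dnm3 and is known from mesenchymal tissues of the mouse embryo, where the transcription factor Twist1 drives it. In heart, miR-214 is known to rise under stress and to limit calcium overload in mouse cardiomyocytes through the sodium-calcium exchanger. miR-199a-5p is known as a repressor of Hif1a in cardiomyocytes, and miR-199a-3p for promoting cardiomyocyte proliferation in rodents.

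The mature sequences are shown because they decide which locus a read can be assigned to. They are RefSeq's, on build GRCm38.p6, written 5′ to 3′ with the seed in capitals.
miR-199a-5p, from Mir199a-1 and Mir199a-2: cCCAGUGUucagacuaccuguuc
miR-199a-3p and miR-199b-3p, from Mir199a-1, Mir199a-2 and Mir199b: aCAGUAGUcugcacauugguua
miR-214-5p, from Mir214: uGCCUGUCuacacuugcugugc
miR-214-3p, from Mir214: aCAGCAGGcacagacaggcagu
The 3p arm was identical at all 3 Mir199 loci, and miR-199a-5p was identical at 2 loci. No listed mature miRNA outside the 4 genes had the seed of miR-199a-5p, of the miR-199 3p arm or of miR-214-5p. No 5p arm was listed for Mir199b, whose hairpin holds the seed of miR-199a-5p in the matching place. The seed of miR-214-3p was shared with 1 other gene, Mir761, which had 0 counts in both hearts. Neither arm of Mir214 occurred in another miRNA gene, and across all annotated transcripts each was found in Mir214 and its host Dnm3os alone.

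The identity between the Mir199 hairpins ran past the arms. Around miR-199a-5p, Mir199a-1 and Mir199a-2 shared an unbroken stretch of 27 nt, the 23-nt arm and 4 nt after it. Around the 3p arm, all 3 hairpins shared 26 nt, the 22-nt arm with 3 nt before and 1 nt after it. These stretches are given in capitals with up to 4 flanking hairpin bases in lower case.
Mir199a-1, 5p side: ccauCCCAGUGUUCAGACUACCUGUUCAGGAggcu
Mir199a-2, 5p side: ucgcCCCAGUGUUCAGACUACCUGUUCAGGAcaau
Mir199a-1, 3p side: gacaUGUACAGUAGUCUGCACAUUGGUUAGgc
Mir199a-2, 3p side: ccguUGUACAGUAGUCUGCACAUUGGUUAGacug
Mir199b, 3p side: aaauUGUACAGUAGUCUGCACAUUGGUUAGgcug
A read inside the capitals matches every locus listed for that side. The Mir199b hairpin differed from miR-199a-5p at 1 of 23 bases in the matching place, hairpin bases 26 to 48, with the substitution C10U counted from 1 at the 5′ end of miR-199a-5p. The pair is shown with the differing base in capitals.
miR-199a-5p: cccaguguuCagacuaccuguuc
Mir199b hairpin, bases 26 to 48: cccaguguuUagacuaccuguuc
This 23-nt stretch of Mir199b was found in 1 miRNA hairpin, its own. Of all windows of 20 nt, 17 of 51 in the Mir199a-1 hairpin, 16 of 91 in Mir199a-2, 10 of 91 in Mir199b and 0 of 91 in Mir214 occurred in another miRNA gene. For the Mir199 genes the others were always the remaining Mir199 genes.

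The 4 genes lie at 3 loci, each antisense to a dynamin gene. Positions are on GRCm38. Mir199a-2 (ENSMUSG00000070126.1) lies on chromosome 1, 162217814 to 162217923, on the plus strand, and Mir214 (ENSMUSG00000065516.1) on chromosome 1, 162223368 to 162223477, on the plus strand. Both lie in an intron of Dnm3 on the opposite strand, with 5444 nt between them. On the same strand, both lie whole in annotated exons of unspliced Dnm3os transcripts and only in part in exons of spliced ones. Mir199a-1 (ENSMUSG00000065547.1) lies on chromosome 9, 21496495 to 21496564, on the minus strand, and inside an intron of Dnm2, which runs the other way. Mir199b (ENSMUSG00000092807.1) lies on chromosome 2, 32318460 to 32318569, on the plus strand, and inside an intron of Dnm1, which runs the other way. The hairpin of Mir199a-1 is annotated at 70 nt and the other three at 110 nt. Apart from the Mir199a-2 and Mir214 pair, the only miRNA gene within 50 kb of a member was Gm23363, 116 nt from Mir199b on the same strand, with 0 counts in both hearts on either strand.

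Mir214 carried most of the counts assigned to the 4 genes. Reads aligned to several places are in none of these counts, and every listed Mir199 arm occurs at more than 1 locus. It had 4118 sense counts in replicate 1 and 6424 in replicate 2, which was 1772 and 1842 CPM, the count scaled to 1000000 sense counts on miRNA genes. The exact Clopper-Pearson 95% interval ran between 1719 and 1827 CPM in replicate 1 and between 1797 and 1888 CPM in replicate 2. Both hearts were close, and the intervals overlapped. All intervals here reflect counting error alone. PCR copies were not told apart by molecular identifiers and count as separate reads, which the intervals do not allow for.

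Mir199b, the locus on chromosome 2, was the highest of the Mir199 genes, with 277 counts in replicate 1 and 506 in replicate 2. This was 119 CPM (interval 106 to 134) in replicate 1 and 145 CPM (133 to 158) in replicate 2. Its level was the lower one in replicate 1, and the 2 intervals overlapped only narrowly. Mir199a-2, the partner of Mir214 in Dnm3os, had 95 counts in replicate 1 and 153 in replicate 2, or 40.9 CPM and 43.9 CPM, with overlapping intervals. Mir199a-1 had 5 and 7 counts, or 2.15 CPM (0.699 to 5.02) in replicate 1 and 2.01 CPM (0.807 to 4.14) in replicate 2. The limit that a count of 0 allows was 1.29 CPM for replicate 1 and 0.860 CPM for replicate 2, so Mir199a-1 was measured near the limit, and the lower bound of its interval fell under that limit in both hearts.

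**Figure D1:**
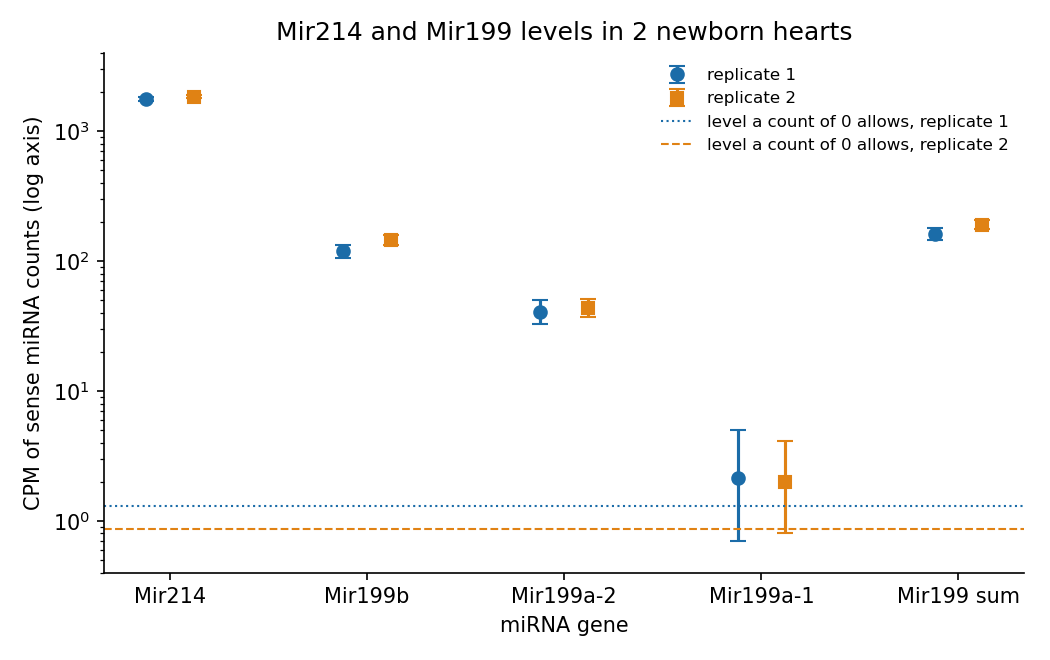
Level of each gene and of the 3 Mir199 genes summed, in CPM on a log axis; points are the 2 hearts, replicate 1 left of replicate 2, and bars are exact 95% intervals for counting error. Mir214 lies at 1772 and 1842 CPM, above the Mir199 sum at 162 and 191 CPM, and Mir199a-1 lies close to the lines that mark what a count of 0 allows. Reads aligned to several places are not included.

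The order of the levels was Mir214, Mir199b, Mir199a-2 and Mir199a-1 in both hearts. The means were 1807 ± 49.4 CPM, 132 ± 18.3 CPM, 42.4 ± 2.11 CPM and 2.08 ± 0.102 CPM (SD, n = 2). No 2 neighbours in this order overlapped, either in the values of the pups or in their intervals. Small RNA reads cover the mature miRNA whole, so counts were not divided by precursor length for this order. Per 100 nt of annotated precursor the order was the same, at 1643, 120, 38.5 and 2.97 CPM. These are levels of counts of reads placed at 1 locus, and differences in how readily each miRNA enters a library were not measured. In whole hearts, fewer cells of a type and less RNA per cell cannot be told apart.

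Within the Mir199 sum of 377 counts in replicate 1 and 666 in replicate 2, Mir199b held 73.5% (68.7% to 77.9%) and 76.0% (72.5% to 79.2%). Mir199a-2 held 25.2% (20.9% to 29.9%) and 23.0% (19.8% to 26.4%). Mir199a-1 held 1.33% (0.432% to 3.07%) and 1.05% (0.424% to 2.15%). The make-up of the sum was thus alike in the 2 hearts within counting error. It covers only reads placed at 1 locus. The Mir199b stretch in the place of miR-199a-5p was found in its own hairpin alone. Every listed arm of Mir199a-1 and Mir199a-2 occurs at another locus. The part of this in the shares was not tested, so they do not give the make-up of miR-199. Of the 4 genes together, Mir214 held 91.6% of counts in replicate 1 and 90.6% in replicate 2.

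Among all genes Mir214 ranked 55 by mean CPM, 57 in replicate 1 and 53 in replicate 2. Mir199b ranked 145, Mir199a-2 202 and Mir199a-1 333, of 615 genes with a sense count in either heart. The 5 genes next above Mir214 were Mir744, Mir425, Mir484, Mir188 and Mir324, and the 5 next below were Mir130b, Mir298, Mir483, Mir145a and Mir148a. With 2 libraries, nearness in mean level was the only measure of likeness used. For 7 of these 10 genes the range over the pups overlapped that of Mir214. Mir744 was above it in both hearts, at 1914 and 1927 CPM. Mir145a, a smooth muscle miRNA made from the same cluster as Mir143, was below it in both, at 1685 and 1740 CPM, and Mir148a at 1688 and 1616 CPM.

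**Figure D2:**
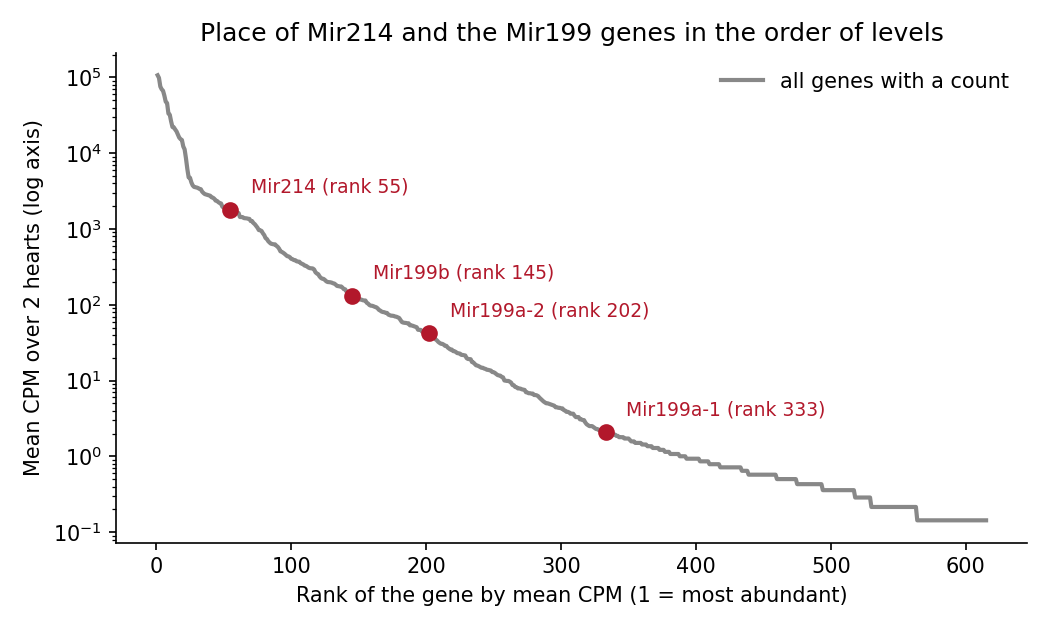
Mean CPM over the 2 hearts, on a log axis, against the rank of each gene with a sense count. The grey line is all 615 such genes and the red points are Mir214 at rank 55, Mir199b at 145, Mir199a-2 at 202 and Mir199a-1 at 333.

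The levels of the Mir199 genes need to be read beside the reads that were assigned to no gene. Reads aligned to several places made up 36.6% of reads in replicate 1 (1850176 reads) and 37.1% in replicate 2 (2757266 reads), in a summary row that is not resolved by gene. That row held 4908 reads for each count on a Mir199 gene in replicate 1 and 4140 in replicate 2. For each Mir214 count it held 449 and 429. The row is 1 total per library, so these ratios follow the size of the gene counts and do not measure lost Mir199 reads. Any reads from the identical stretches of miR-199a-5p and of the 3p arm could stand in that row, and how many do was not tested. The Mir199 values above are therefore the reads that were placed at 1 locus, and the level of miR-199 in these hearts is not given by them. The 2 arms of Mir214 have no such second locus among the annotated miRNA genes and transcripts. Counts are per gene, so the 5p and 3p arms of a gene are not separated.

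All genes were sorted by whether their listed mature arms occur at another miRNA locus, and the shares were not tested against each other. For 34 genes every listed arm does, and 6 of them (17.6%) had a sense count in either heart, the 3 Mir199 genes included. Mir199b stands in this class by its 3p arm, the only arm listed for it. Of 53 genes with some listed arms at another locus 42 (79.2%) had a count. Of 829 genes with no listed arm at another locus 492 (59.3%) had a count. Arms missing from the list are not seen by this sorting. Mirlet7a-2 is among the 829, although 6 of its 77 windows of 20 nt occur in another miRNA gene. The remaining 1057 genes had no mature arm in the RefSeq table, and 75 of them (7.10%) had a count. Over all classes 615 of 1973 genes had a count. In the class of 34, Mir199b had the highest mean level, 132 CPM.

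In Dnm3os, Mir199a-2 was far below Mir214 in both hearts. The log2 ratio of Mir199a-2 over Mir214 was -5.44 in replicate 1 and -5.39 in replicate 2, with a mean of -5.41 ± 0.0325 (SD, n = 2), which puts Mir214 42.7-fold above Mir199a-2. The 3 Mir199 genes together had a log2 ratio over Mir214 of -3.45 in replicate 1 and -3.27 in replicate 2. Mir199b over Mir199a-2 stood at a log2 ratio of 1.54 in replicate 1 and 1.73 in replicate 2, or 3.11-fold. These ratios were left untested, because an exact sign flip over 2 pups cannot pass 0.05. The Mir199 counts in them rest on reads placed at 1 locus, and the part of the unassigned reads in them was not tested.

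A wide gap was common among neighbouring miRNA genes when pairs were chosen by the level of the higher gene. Taking neighbours on the same strand within 10 kb, with the higher gene at 100 CPM or more, gave 85 pairs, Mir199a-2 and Mir214 among them. The lower gene had 0 counts in 15 pairs. The median log2 ratio of the lower over the higher gene was -4.97, or 31.2-fold. Of the 84 other pairs, 35 (41.7%) were further apart than Mir199a-2 and Mir214. Among pairs with a count of the lower gene, the furthest apart were Mir544 over Mir382 (log2 -9.47), Mir449b over Mir449a (-9.41) and Mir19b-1 over Mir20a (-9.36). The closest were Mir15a over Mir16-1 (-0.25), Mir106b over Mir93 (-0.32) and Mir24-2 over Mir27a (-0.33). In 18 pairs the lower gene had an arm that occurs at another locus, as Mir199a-2 has, and their median was -5.96; 10 of the 17 pairs other than Mir199a-2 and Mir214 were further apart than it. In 55 pairs no listed arm of the lower gene did, and their median was -3.51. Of these 55, 14 were further apart than Mir199a-2 and Mir214. In 12 pairs no arm was listed for the lower gene, and 11 of these were further apart. Pairs share genes and libraries, so these are descriptions with no test.

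**Figure D3:**
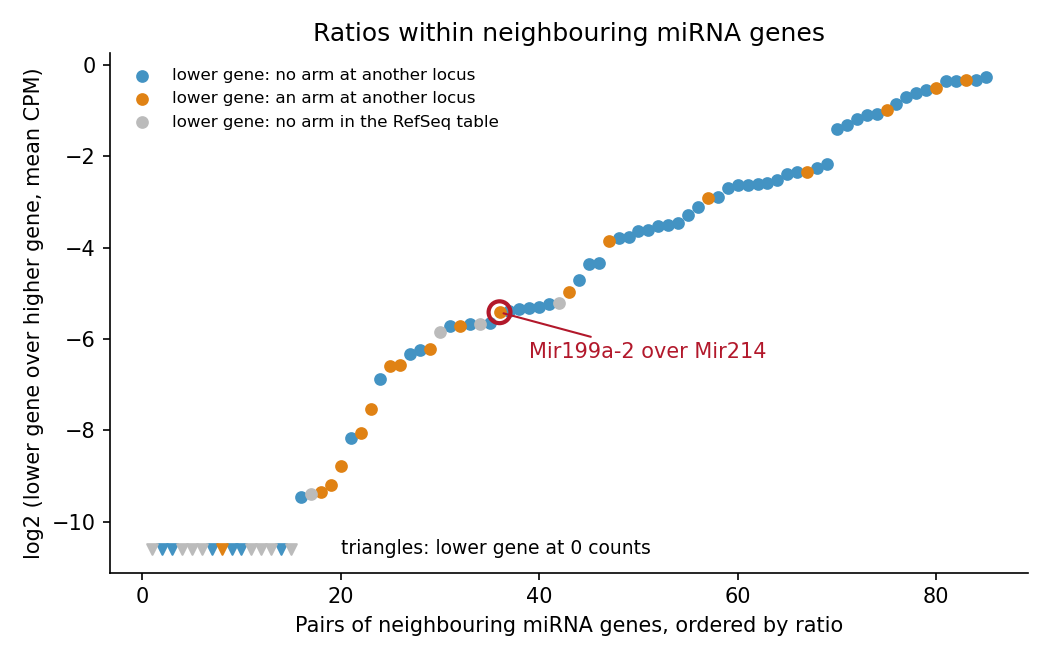
Log2 ratio of the lower over the higher gene by mean CPM in 85 pairs of neighbouring miRNA genes, ordered along the x axis. Colours give whether the lower gene has a listed mature arm at another locus. The pair of Mir199a-2 and Mir214, circled at -5.41, lies near the middle of the order, and triangles at the bottom mark 15 pairs with the lower gene at 0 counts.

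Mir214, Mir199a-2 and Mir199a-1 did not pass the test between the hearts, and neither did Mir199b. For each gene the split of its counts between the libraries was set against TMM-scaled totals in a two-sided exact binomial test, with Benjamini-Hochberg adjustment over 615 genes. It called 86 genes, or 14% of those tested, and 0 of the 4 members. Of all genes tested, 5.04% were called higher in replicate 1 and 8.94% lower. This test compares 2 libraries at counting error only. The log2 ratio of replicate 1 over replicate 2 was -0.04 for Mir214 (adjusted p = 0.555, exact binomial test), -0.08 for Mir199a-2 (adjusted p = 0.981, exact binomial test) and 0.08 for Mir199a-1 (adjusted p = 1, exact binomial test). For Mir199b it was -0.27, a level 1.20-fold higher in replicate 2, with adjusted p = 0.0817 in the exact binomial test. These ratios were taken on TMM-scaled totals, and scaling by total counts gave -0.28 for Mir199b. Over the alternatives the adjusted p of Mir199b ran from 0.0467 to 0.262, and it passed in 1 of them, when genes with fewer than 10 counts over both libraries were left out. At an unadjusted 0.05, Mir199b passed (p = 0.0130, exact binomial test) and the other three did not.

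The difference of Mir214 was small against the set of genes used here, most of which had lower levels than Mir214 and so larger counting error. Across the 193 genes that averaged at least 50 CPM, the median absolute log2 ratio between the hearts was 0.11, and 81.3% of them differed by more than Mir214. For Mir199b, 16.6% of them differed by more. Of these 193 genes 6 (3.11%) were past 1.5-fold by CPM without TMM scaling. Mir214 and Mir199b, the 2 members among the 193, were not past it. Epithelial miRNAs moved between the same libraries, with a level summed over 7 genes of 240 CPM for replicate 1 and 1316 CPM for replicate 2. Each of the 7 was higher in replicate 2, and Mir449a alone went from 35.7 CPM in replicate 1 to 742 CPM in replicate 2. The part of the epithelial miRNAs in the Mir199b difference was not tested.

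**Figure D4:**
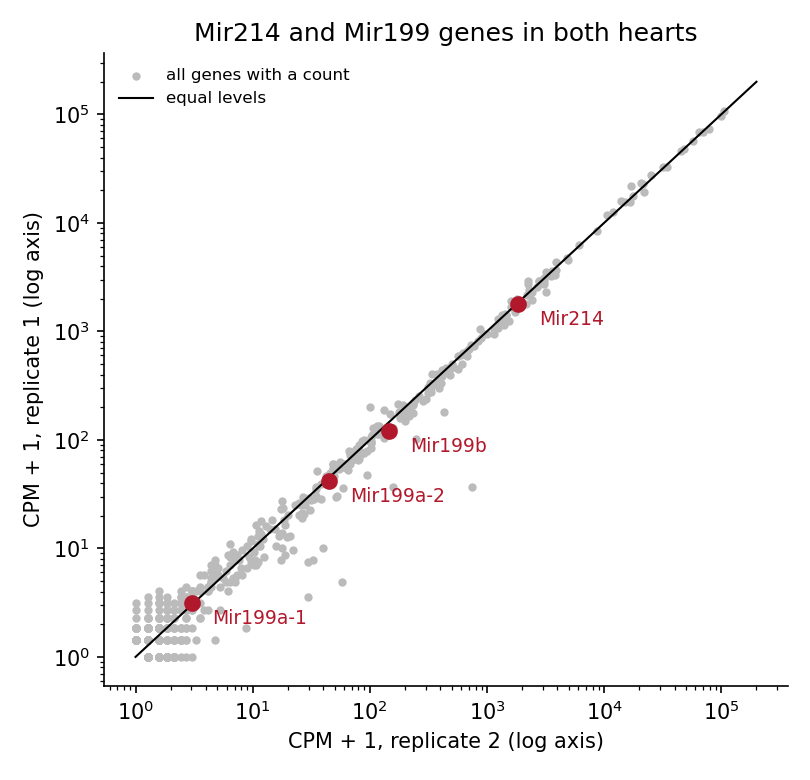
CPM + 1 in replicate 1 against CPM + 1 in replicate 2, both on log axes, for all genes with a sense count (grey) and the 4 members (red); the line marks equal levels. Mir214, Mir199a-2 and Mir199a-1 lie close to the line, and Mir199b lies slightly to the side of replicate 2.

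Mir214 was set beside a few miRNAs known from single cell types of the heart, and each ratio speaks for the gene named and not for its cell type. The tables hold no messenger RNAs, so the mesenchymal source of these genes was not checked against other markers. Of the miRNAs used for fibroblasts and mesenchyme, Mir214 was 11.4-fold below Mir21a, which is widely expressed (log2 ratio -3.51 ± 0.0842, SD, n = 2). It was 5.25-fold above Mir29a (2.39 ± 0.223) and 13.6-fold above Mir29c (3.76 ± 0.0237), both known as antifibrotic. Mir29b-1, with 4 and 3 counts, and Mir29b-2, with 5 and 5, have arms at more than 1 locus as the Mir199 genes do. Of the miRNAs in Hox clusters, Mir10a and Mir10b were compared: Mir214 was 1.43-fold above Mir10a and 1.30-fold above Mir10b.

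Against the pair of the smooth muscle cluster, Mir214 was 54.5-fold below Mir143 and 1.06-fold above Mir145a. It was 59.1-fold below Mir126a, an endothelial miRNA and the only one listed. Mir221 and Mir222, not in the list, averaged 121 and 57.0 CPM, below Mir214. Against the myosin-hosted miRNAs of cardiomyocytes Mir214 was 38.6-fold below Mir208b, 8.25-fold below Mir208a and 2.65-fold below Mir499. Other muscle miRNAs were not in the list and went the other way. Mir1a-1 averaged 6.38 CPM, Mir133a-1 7.89, Mir133a-2 2.08, Mir133b 2.08 and Mir206 21.4. Of windows of 20 nt, 17 of 49 in Mir133a-1 and 17 of 85 in Mir133a-2 occurred in another miRNA gene. Loci missing from the list are not seen by these windows. The values of all these muscle genes cover only reads placed at 1 locus and do not give the level of their mature miRNAs. The part of these genes in the unassigned reads was not tested. Against blood miRNAs Mir214 was 4.26-fold above the erythroid Mir451a and 5.50-fold above the myeloid Mir223. The sum of the 4 members was 1935 CPM for replicate 1 and 2033 CPM for replicate 2, or 0.198% ± 0.00697 of sense counts (SD, n = 2). The 7 other mesenchymal and fibroblast miRNAs had a sum of 22343 CPM for replicate 1 and 25110 CPM for replicate 2, of which Mir21a alone made 19337 and 21827 CPM. Without Mir21a, the other 6 summed to 3006 and 3283 CPM. Most of this came from the Hox-cluster genes Mir10a (1148 and 1398 CPM) and Mir10b (1422 and 1354 CPM), and little from the Mir29 genes.

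No reads were counted on the opposite strand of any member, although each lies opposite a dynamin gene. Opposite counts were 0 in both hearts for Mir214, Mir199b, Mir199a-2 and Mir199a-1. For Mir214 this allows an opposite-strand share of up to 0.0729% in replicate 1 and 0.0467% in replicate 2, and for Mir199b up to 1.08% and 0.593%. For Mir199a-2 the limit was 3.16% and 1.96%, and for Mir199a-1, with its few counts, 60.0% and 42.9%, so little is known of its opposite strand. This was the usual case: of 235 genes with 50 or more counts over both strands in each library, 210 (89.4%) had 0 opposite counts in both hearts.

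Depth was 5052766 reads in replicate 1 and 7441784 in replicate 2, of which 2323450 and 3487183 were sense counts on miRNA genes. In replicate 1 349 genes reached 2 CPM and in replicate 2 339 did, and 327 did so in both. Mir199a-1 was the member nearest that level, and its depth of 5 and 7 counts leaves its share and its ratio to the other genes the least certain.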

How the data were processed

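Small RNA was sequenced from 2 newborn hearts, 1 library each. Each deposited table gave raw counts of reads on miRNA genes in 3 columns (both strands together, sense, opposite), with no scaling by the authors; the first was the sum of the others in 1973 of 1973 genes. Per the deposited file descriptions, assembly mm10 and GENCODE M4 were used. The aligner and counter, and how they were set, are not given in the sources used here. The 4 summary rows (unmapped, several places, no feature, ambiguous) entered neither totals nor tests; on the sense strand they held 11.5%, 36.6%, 5.93% and 0% of reads in replicate 1 and 10.5%, 37.1%, 5.62% and 0% in replicate 2.

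Positions, hosts and precursor sequences came from GENCODE M21 on GRCm38, the assembly of mm10, in which 1894 of 1973 identifiers matched; the other 79 had 0 counts. Mature and hairpin sequences came from RefSeq (GRCm38.p6), matched by symbol, for 4 of 4 members. CPM was computed over sense counts on genes. The libraries were compared by an exact binomial test (SciPy 1.17.1) with TMM factors from edgeR 4.0.16 and adjusted p under 0.05 as the threshold, since 1 library per heart allows no replicated model; log2 ratios between hearts add 1 CPM. The test was checked on simulated data. Alternatives covered denominators, scaling (with DESeq2 1.42.0 size factors as 1 of them), strand columns, pseudocounts, low-count filters, thinning and each heart alone.

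The members, lists, pairs and tests were chosen with earlier results of these data known. Named genes were the members, the 5 genes on either side of Mir214 in level, comparator lists for cell types, the 3 closest and 3 furthest pairs with a count, miRNA genes within 50 kb and genes sharing a seed. The Mir1, Mir133, Mir206, Mir221 and Mir222 genes were named after their values were seen. Both pups come from 1 litter, and with 1 library per heart, animal and library preparation cannot be told apart.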

Additional observations from a re-analysis of the deposited data

How the results depend on the processing

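Scaling by TMM or DESeq2 size factors moved the level of no member, nor of the Mir199 sum, by more than the SD over the pups, and either heart alone gave Mir214 between 1772 and 1842 CPM and the Mir199 sum between 162 and 191 CPM. Over all reads of the library the levels were 839 reads for Mir214 and 82.1 for the Mir199 sum in 1000000, by construction of the larger denominator. With counts of both strands Mir214 stood at 1687 CPM and rank 58. With 1 CPM added, the log2 ratio of Mir199a-2 over Mir214 was -5.38. Counting genes with any listed arm at another locus, 55.2% had a count. The genes called between the hearts ran from 79 to 97. The low count of Mir199a-1 gave a log2 ratio of replicate 1 over replicate 2 of -0.17 when replicate 2 was thinned to the total of replicate 1, against 0.08 without thinning; the cause was not tested. The limit of 5 kb for neighbours gave no value, since Mir199a-2 and Mir214 lie further apart; the other limits put 36.6% to 44.7% of pairs further apart. No paired analysis was possible because there is 1 group. The difference between hearts has no value without either heart. Depth limits Mir199a-1, and the unassigned reads limit all Mir199 levels.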

Other observations

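The 6 genes with a count although every listed arm occurs at another miRNA locus were Mir199b, Mirlet7c-2, Mir199a-2, Mir3074-1, Mir129-1 and Mir199a-1; the 3 outside the Mir199 family were named after their values were seen. Mirlet7c-2, of the let-7 family, had 278 counts in replicate 1 and 385 in replicate 2, or 120 and 110 CPM, a level near that of Mir199b. Mir3074-1 had 63 and 106 counts, and Mir129-1 had 11 and 10. Mir199a-1 was the lowest of the 6 by mean CPM.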
